A study of Mus musculus with 9 samples.

Results

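The genes described here make, cut or bind hyaluronan. They are 10 genes, 3 synthases, Ugdh for the precursor UDP-glucuronate, 4 breakdown genes and 2 receptors, out of 54838 gene identifiers in the count table. They were chosen because Has2 was picked out as strongly raised in the Zdhhc20 knockout clone of a mouse pancreatic cancer line. Has2 values in that clone are therefore a description with no test, while the other 9 members were chosen by function.

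Hyaluronan is a long, unbranched sugar polymer of the extracellular matrix that accumulates around pancreatic ductal adenocarcinoma. Hyaluronan synthases (HAS1, HAS2 and HAS3) sit in the plasma membrane and join UDP-glucuronate and UDP-N-acetylglucosamine into the chain, which is pushed out of the cell. Hyaluronidases such as HYAL2 at the surface and HYAL1 in the lysosome cut it, CEMIP and its membrane-bound relative CEMIP2 also break it down, and CD44 and HMMR bind it.

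RNA-seq was collected from 9 libraries of PDA530 Met, a mouse pancreatic ductal adenocarcinoma line established from a liver metastasis that arose in a male KPC mouse on a mixed 129/SvJae and C57Bl/6 background. The knockout group (E4, 3 libraries) was clone E4, 1 single-cell clone edited in the palmitoyltransferase gene Zdhhc20 with CRISPR/Cas9. The control group (C5, 3 libraries) was clone C5, 1 single-cell clone nucleofected with those guide RNAs too, in which editing failed and Zdhhc20 is expressed. The parental group (3 libraries) was the uncloned line, which the labels describe as a further control and for which no nucleofection is stated. The series design text names the parental cells PDA50 Met where the other labels have PDA530 Met, and they were taken as 1 line, which the count table was not used to test. All groups were untreated and harvested under normal growth. Libraries of a clone are replicates of that clone and not of independent clones, so the edit and the choice of clone cannot be told apart.

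Total counts ranged from 16525869 to 23192701 per library. Levels are in CPM, counts scaled to a common library total with TMM factors. A gene was called when its Benjamini-Hochberg adjusted p in the edgeR quasi-likelihood fit over all 13153 tested genes was under 0.05. Zdhhc20 was at 33.9 to 42.5 CPM in E4 and at 75.3 to 123 CPM in the 6 others. Of the epithelial markers, Krt8, Krt18 and Cdh1 were abundant in every library, while Epcam was at most 0.635 CPM. The summed level of 8 fibroblast markers was 0.818 to 1.67 CPM in E4, 1.31 to 2.89 CPM in C5 and 3.12 to 4 CPM in the parental line. Col1a2, Col3a1, Dcn, Lum and Thy1 held 0 counts in all 9 libraries. Leukocyte markers summed to at most 2.88 CPM and endothelial markers to at most 0.525 CPM. In bulk samples such as these, fewer cells of a kind and less RNA per cell cannot be told apart.

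The synthases were examined first. Has2, the synthase known for large hyaluronan coats in mesenchymal cells, was at 19.7, 12.8 and 16.8 CPM in E4. It was at 0.131, 0.357 and 0.105 CPM in C5 and at 1.2, 0.825 and 0.471 CPM in the parental line. The lowest E4 library was 10.6-fold above the highest of the 6 others, and no groups overlapped. Libraries did not overlap for 51.6% of all tested genes between E4 and C5, 61.5% between E4 and the parental line and 37.3% between C5 and the parental line. The fitted log2 difference of E4 was 6.40 (SE 0.41) from C5 and 4.26 (SE 0.33) from the parental line. Among all tested genes these differences ranked 4th and 6th from the highest, so Has2 was among the most raised genes and not the first. The first rests on few reads, since the 3 C5 libraries held 11 Has2 counts in all (95% Poisson interval 5.49 to 19.7, counting error only), against 920 in E4. It was 7.03 without C5 replicate 2.

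Between the groups without the edit, the log2 difference of Has2 was -2.13, C5 minus the parental line (SE 0.53). It is given as a description, because Has2 passed the filter on low counts through its E4 libraries and the libraries compared served as the reference when it was picked. Over the alternatives that kept Has2 it ranged from -2.77 to -1.76.

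Has2 (ENSMUSG00000022367) lies on the minus strand at chr15:56665627-56694539 of GRCm38, the build of all gene positions given here. Its exons share 182 bases with Has2os, an antisense RNA gene on the other strand, and the strand setting of the counting is not given in the sources used here. Has2os was at 0.488, 0.278 and 0.467 CPM in E4, at 0.175, 0 and 0.21 CPM in C5 and at 0.241, 0.295 and 0.353 CPM in the parental line. It was too low to be tested. With Has2 and Has2os counted as 1 gene, the log2 difference from C5 was 5.67 and that from the parental line was 3.88.

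The nearest tested genes on either side of Has2 lay at least 1000 kb away. On the lower side these were Deptor, an inhibitor of mTOR signalling, Mrpl13, a mitochondrial ribosome protein, and Mtbp, a protein of replication origin firing. On the upper side they were the transcription factor gene Zhx2, Derl1, which acts in endoplasmic reticulum protein export, and Tbc1d31. Of these 6, Mtbp was called higher in E4 than in C5 (0.79, edgeR adjusted p 0.000926) in all 17 alternatives. The others were not called there, although leaving out C5 replicate 2 gave calls of Deptor (-0.73, adjusted p 0.019) and Mrpl13 (0.22, adjusted p 0.0292), and leaving out C5 replicate 1 gave one of Zhx2 (0.40, adjusted p 0.0129). None was called between E4 and the parental line, where their log2 differences were -0.79 to 0.24. That of Mtbp (0.24) was called there without C5 replicate 1 (adjusted p 0.0433) and in the fit of these groups alone (adjusted p 0.0053). That of Deptor (-0.79) was called in 4 alternatives, without C5 replicates 2 or 3 (adjusted p 0.0109 and 0.0338), with no filter (0.0429) and with these groups alone (0.00115). Between C5 and the parental line Mtbp was called lower in C5 (-0.55, adjusted p 0.014), which was lost with those groups alone (0.0515). Zhx2 was also called lower there (-0.38, adjusted p 0.036), in 9 of 17 alternatives. That call was lost without C5 replicates 2 or 3 (0.0536 and 0.0555), any 1 parental library (0.0772 to 0.115), E4 replicates 1 or 2 (0.0585 and 0.0558) or with those groups alone (0.0946). Deptor was called there without C5 replicate 3 (-0.90, adjusted p 0.0447). The median log2 difference of the 523 tested genes on chromosome 15 was -0.02 against C5 and 0.09 against the parental line.

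Has3 (ENSMUSG00000031910, chr8:106870242-106884566, plus strand), whose enzyme makes shorter chains, was low in every library. It was at 0.586, 0.556 and 0.818 CPM in E4, at 0.349, 0.416 and 0.262 CPM in C5 and at 0.963, 0.707 and 0.883 CPM in the parental line. The C5 libraries lay below all others, and the E4 and parental ones overlapped. Has3 was 0.92 higher on the log2 scale in E4 than in C5 (SE 0.35), or 0.95 with scaling by total counts. Its C5 libraries held 8, 7 and 5 counts, under the minimum of 10 in the filter on low counts. Has3 therefore passed that filter through the other groups, where it was higher, and its differences from C5 are a description with no test. Between E4 and the parental line the difference was -0.39 (SE 0.32, edgeR adjusted p 0.38).

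Between C5 and the parental line the log2 difference of Has3 was -1.31 (SE 0.34), and over the alternatives that kept Has3 it ranged from -1.45 to -1.16. This is likewise a description, although the member counts below include Has3 as lower in C5. With 20 to 47 Has3 counts per group, counting error is part of these values. Has3 also shares 352 exon bases with Chtf8 on the other strand, which held 25241 counts. Has1 (ENSMUSG00000003665, chr17:17843323-17855205, minus strand) held 1 count in the 9 libraries together and was not tested.

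Levels of different genes were compared per kilobase of annotated exon. On that scale Has2 was at 3.87 ± 0.815 CPM per kb (SD, n = 3) in E4 and Has3 at 0.102 ± 0.0224. In C5 Has2 was at 0.0466 ± 0.0327 and Has3 at 0.0537 ± 0.0121, and in the parental line the values were 0.197 ± 0.0866 and 0.133 ± 0.0205. The libraries of Has2 and Has3 overlapped in C5 and in the parental line. Has2 made up 97.4 ± 0.619% of the summed synthase level in E4, 43.3 ± 11.3% in C5 and 57 ± 11% in the parental line. The summed level of the 3 synthases was 3.98 ± 0.82 CPM per kb in E4, 0.1 ± 0.0437 in C5 and 0.334 ± 0.0939 in the parental line.

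**Figure D1:**
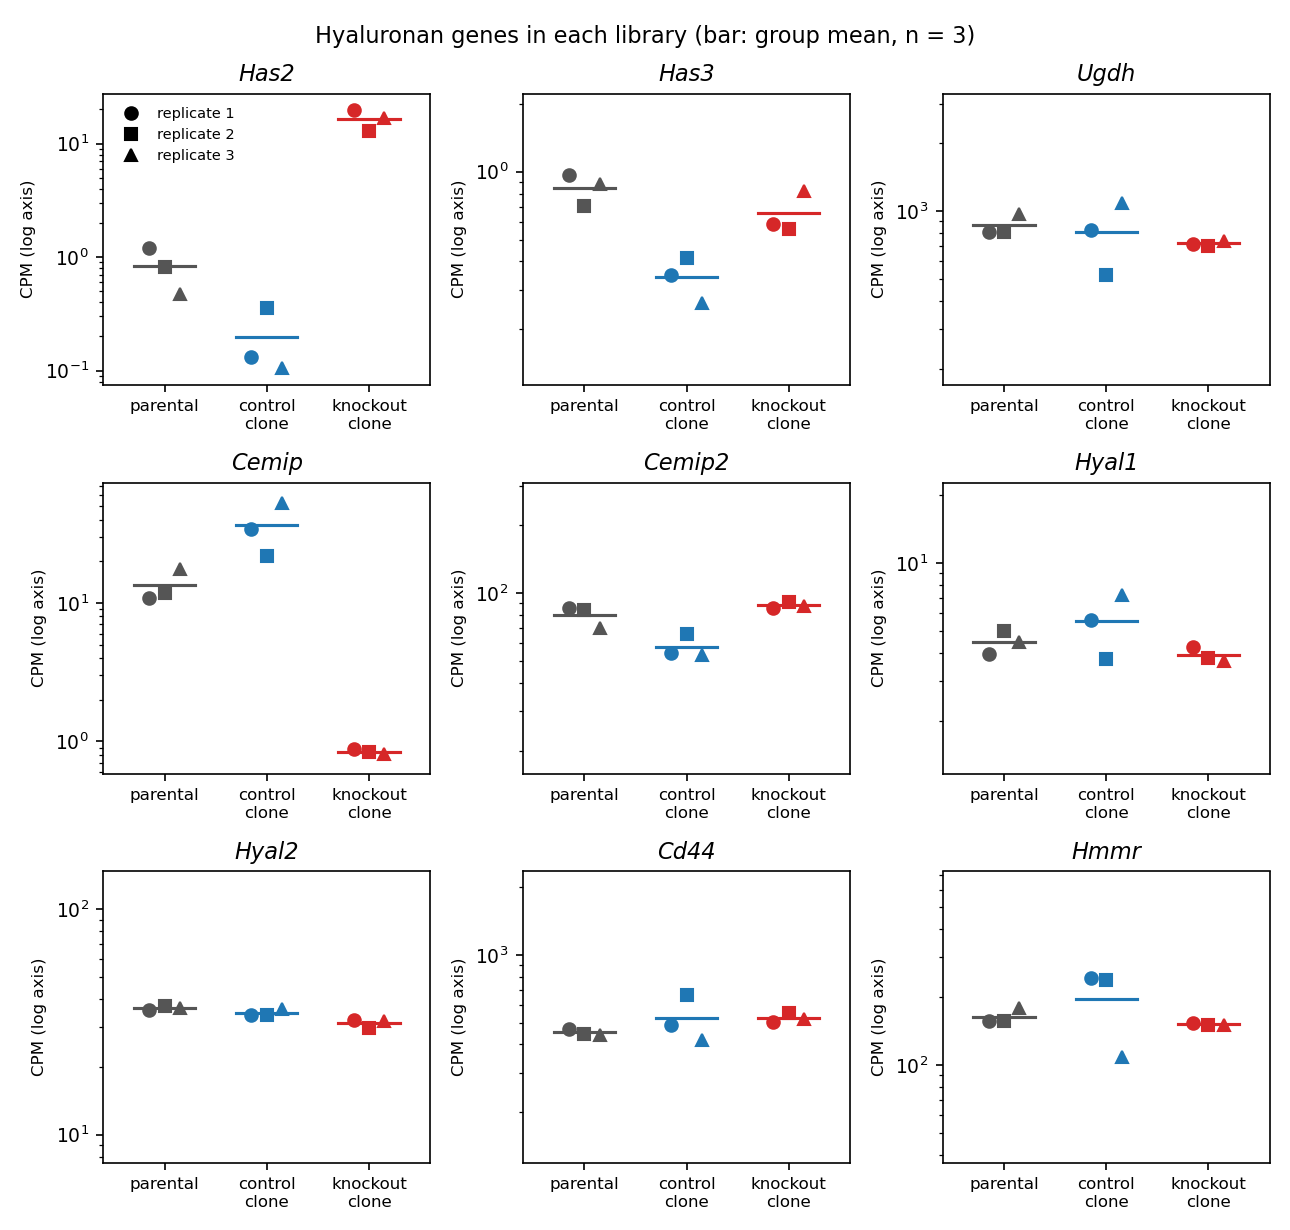
CPM of each tested member in every library (knockout is E4, control is C5) on a log axis, with its own scale in each panel; points are libraries (circle, square and triangle for replicates 1, 2 and 3) and bars are group means (n = 3). The E4 libraries stand at 12.8 to 19.7 CPM for Has2 and at 0.818 to 0.879 CPM for Cemip, apart from all other libraries in opposite directions.

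Ugdh (ENSMUSG00000029201, chr5:65413221-65435949, minus strand), which encodes the enzyme that oxidises UDP-glucose to UDP-glucuronate, was the most abundant member per length. It was at 713, 703 and 740 CPM in E4, at 826, 520 and 1084 CPM in C5 and at 807, 807 and 975 CPM in the parental line. The C5 libraries spanned a range wide enough to enclose both other groups. Ugdh had a log2 difference of -0.17 between E4 and C5 (SE 0.21, edgeR adjusted p 0.54) and -0.26 between E4 and the parental line (SE 0.21, adjusted p 0.379). The first was called without C5 replicate 2 (-0.41, adjusted p 0.017), and the second in a fit of those groups alone (adjusted p 0.0133). Between C5 and the parental line the log2 difference was -0.09 (SE 0.21, adjusted p 0.794).

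Among the breakdown genes, Cemip (ENSMUSG00000052353, chr7:83932857-84086502, minus strand) fell furthest. CEMIP is needed for hyaluronan depolymerisation in skin fibroblasts and is raised in several carcinomas. Its transcript was at 0.879, 0.835 and 0.818 CPM in E4, at 34.2, 21.7 and 52.9 CPM in C5 and at 10.9, 11.8 and 17.7 CPM in the parental line. No groups overlapped, and the lowest of the 6 other libraries was 12.4-fold above the highest E4 library. The E4 libraries held 47 Cemip counts in all (95% Poisson interval 34.5 to 62.5, counting error only). The log2 difference of E4 was -5.41 from C5 (SE 0.40, edgeR adjusted p 1.56e-05) and -3.98 from the parental line (SE 0.40, adjusted p 0.000129). Both were called in all 17 alternatives, with adjusted p of at most 0.00037 and 0.00309. Of all tested genes, 1.01% and 2.11% had a lower log2 difference in these comparisons.

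Cemip was 1.43 higher on the log2 scale in C5 than in the parental line (SE 0.30, edgeR adjusted p 0.00905), and this was called in all 17 alternatives. The C5 libraries were 2.43-fold apart for Cemip, where the median gene above a mean of 5 CPM was 1.31-fold apart. The median log2 difference of the 973 tested genes on its chromosome 7 was -0.02 in both E4 comparisons.

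The promoter of Cemip is shown because it is the member of the tested set that fell in both E4 comparisons. These are the 250 bases before its RefSeq start on the minus strand, chr7:84086506-84086755 of GRCm38.p6, written 5′ to 3′ in the direction of transcription. The promoter of Hmmr, chr11:40733438-40733687 on the minus strand, is shown beside it as a member that was called in neither E4 comparison. Capitals mark matches on either strand to the TATA box, searched as TATAAA, to the GC box, searched as GGGCGG, and to the CCAAT box, searched by the letters of its name.
Cemip: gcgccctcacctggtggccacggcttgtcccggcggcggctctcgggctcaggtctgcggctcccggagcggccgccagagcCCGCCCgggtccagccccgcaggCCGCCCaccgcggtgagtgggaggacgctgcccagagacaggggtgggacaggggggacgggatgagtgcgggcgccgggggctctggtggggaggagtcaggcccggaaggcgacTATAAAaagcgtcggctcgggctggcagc
Hmmr: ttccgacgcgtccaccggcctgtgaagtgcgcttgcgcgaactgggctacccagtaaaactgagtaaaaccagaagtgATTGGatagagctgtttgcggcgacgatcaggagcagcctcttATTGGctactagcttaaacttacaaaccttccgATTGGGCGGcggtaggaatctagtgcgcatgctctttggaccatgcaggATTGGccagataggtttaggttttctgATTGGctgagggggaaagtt
The promoter table from RefSeq held 7 of the 10 members, and Has2, Has3 and Cemip2 were not among them. Of the 7, Cemip was the only one with TATAAA, at 29 to 24 bases before the start, and 12.4% of all 32851 promoters of this length hold it on either strand. It also held GGGCGG at 2 places, both on the opposite strand, and 32.7% of all promoters hold that motif. Hmmr held CCAAT at 5 places, all on the opposite strand, which reads ATTGG, and 1 of these overlaps a GGGCGG match. At least 5 such matches occur in 0.213% of all promoters. The letters TGANTCA (AP-1 site) and CACGTG (E-box) were in none of the 7 on either strand, against 6.75% and 6.02% of all promoters. GGAATG (TEAD site) was in Hyal2 only, against 12.6% of all promoters. Such matches describe letters and not bound sites.

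Cemip2 (ENSMUSG00000024754, chr19:21778342-21858360, plus strand), for a transmembrane protein reported to cut hyaluronan at the cell surface, was at 86.2, 91.7 and 87.5 CPM in E4. It was at 54.4, 65.6 and 53.3 CPM in C5 and at 85.6, 83.9 and 70.3 CPM in the parental line. The C5 libraries were below all others, and the lowest E4 library exceeded the highest parental library by 1.01-fold. Cemip2 was 0.62 higher on the log2 scale in E4 than in C5 (SE 0.11, edgeR adjusted p 0.00146), a call kept in all 17 alternatives. The difference from the parental line was 0.15 (SE 0.10, adjusted p 0.319). Between C5 and the parental line it was -0.47, called lower in C5 (SE 0.11, adjusted p 0.0135). The median of the 462 tested genes on its chromosome 19 was 0.18, 0.02 and -0.15 in these comparisons. The call between C5 and the parental line was kept in 16 of 17 alternatives and lost in a fit of those groups alone (adjusted p 0.0524).

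Hyal2 (ENSMUSG00000010047, chr9:107567945-107572779, plus strand), for the surface hyaluronidase that makes intermediate-sized fragments, varied least of the tested members over the 9 libraries. It was at 32.2, 29.8 and 31.9 CPM in E4, at 34.1, 34.1 and 36.2 CPM in C5 and at 35.8, 37.1 and 36.4 CPM in the parental line. The E4 libraries were the lowest. The log2 difference of Hyal2 was -0.22, called lower in E4 than in the parental line (SE 0.07, edgeR adjusted p 0.0484), and 7 of 17 alternatives kept that call. Leaving out C5 replicate 1 ended it (adjusted p 0.0605), as did leaving out parental replicates 1, 2 or 3 (0.0999, 0.144 and 0.127) or E4 replicates 1, 2 or 3 (0.0992, 0.161 and 0.108). With the replicate number as a block the adjusted p was 0.0835. Against C5 the difference was -0.15 (SE 0.07, adjusted p 0.119).

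Hyal1 (ENSMUSG00000010051, chr9:107576927-107581710, plus strand), for the lysosomal hyaluronidase, was at 4.25, 3.78 and 3.68 CPM in E4, at 5.59, 3.75 and 7.19 CPM in C5 and at 3.95, 5.01 and 4.47 CPM in the parental line. All 3 groups overlapped, and no comparison was called. Its log2 difference between E4 and C5 was -0.50 (SE 0.23, edgeR adjusted p 0.108), and without C5 replicate 2 it was called (-0.70, adjusted p 0.00896). Of its annotated exon bases, 50.8% are shared with Naa80 on the same strand, so reads of both genes can be divided wrongly. Hyal1 and Hyal2 lie next to each other on chromosome 9, where the median log2 difference of 748 tested genes was -0.53 in both E4 comparisons. The part of that shift in the Hyal1 and Hyal2 values was not tested.

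Added up per length, the 4 breakdown genes stood at 21 ± 0.117 CPM per kb in E4, 21.8 ± 1.47 in C5 and 22.7 ± 0.736 in the parental line (SD, n = 3). Cemip supplied 0.329 ± 0.0111% of that sum in E4, 13.4 ± 4.94% in C5 and 4.88 ± 1.5% in the parental line. Cemip2 and Hyal2 supplied most of it in every group. The annotated exons of Cemip add up to 12232 bases and its longest transcript to 7111, by which its level in C5 would be 5.1 ± 2.2 CPM per kb.

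Has2 was higher and Cemip lower in every E4 library than in every other library. Within E4 they did not stand in opposite order, since replicate 1 held the most of both, although Cemip there held only 18, 15 and 14 counts. The log2 ratio of Has2 to Cemip per length was 5.47 to 6.01 in the E4 libraries, -7.45 to -4.40 in the C5 libraries and -3.70 to -1.65 in the parental ones. Among the 6 libraries without the edit, the library order by Has2 was the exact reverse of that by Cemip, from parental replicate 1 with the most Has2 to C5 replicate 3 with the least. These points share 2 groups, and Has2 counts there were low, from 2 to 25 per library. Among the epithelial markers, Cdh1, Krt8, Krt18 and Krt19 were called lower in E4 than in both other groups. Epcam was at 0.61 ± 0.0255 CPM in E4, 0.15 ± 0.0285 CPM in C5 and 0.198 ± 0.0695 CPM in the parental line (SD, n = 3). Against the parental line, the Krt18 call was lost without any 1 parental or E4 library (adjusted p 0.0907 to 0.15). The epithelial sum was 3874 to 4080 CPM in E4, 6253 to 8417 CPM in C5 and 6299 to 7745 CPM in the parental line. Mesothelial cells also make hyaluronan. Of their 3 markers, Msln was called lower in E4 than in C5 (-1.04, edgeR adjusted p 7.11e-05). It was also called higher in C5 than in the parental line (0.99, adjusted p 0.000339). Between E4 and the parental line Msln was at -0.05 (adjusted p 0.756), so the C5 libraries were the ones that stood apart. Wt1 held 2 counts in the E4 libraries, 258 in the C5 libraries and 177 in the parental ones, which is a description with no test because it passed the filter on low counts through the groups where it was high, while Upk3b was too low to be tested and held 0 counts in E4. Their sum, nearly all of it Msln, was 854 to 896, 1528 to 1992 and 860 to 968 CPM in the same order. The part of either marker set in the Has2 and Cemip values was not tested.

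**Figure D2:**
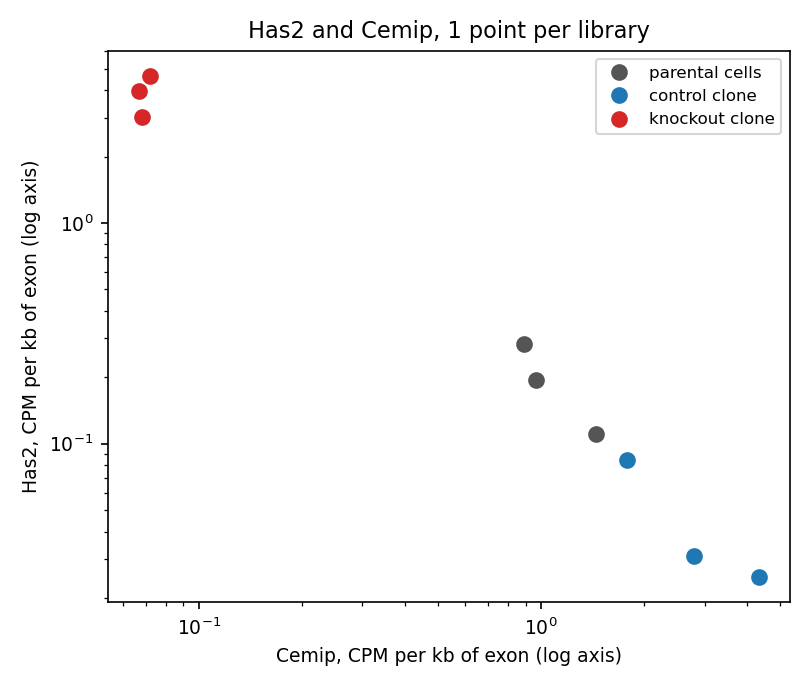
Has2 (vertical) against Cemip (horizontal), both in CPM per kb of annotated exon on log axes, 1 point per library and coloured by group. The 3 E4 points lie at upper left with Has2 at 3.02 to 4.64 and Cemip at 0.0668 to 0.0719, and the 6 other points run from the parental line to C5 with falling Has2 and rising Cemip.

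The receptors were abundant, and neither was called in any comparison. Cd44 (ENSMUSG00000005087, chr2:102811141-102901665, minus strand), for the main hyaluronan receptor, was at 502, 552 and 520 CPM in E4, at 489, 666 and 420 CPM in C5 and at 470, 447 and 442 CPM in the parental line. The C5 libraries ranged from below all others to above all others. Between E4 and C5 the log2 difference was 0.00 (SE 0.14, edgeR adjusted p 1), and over the alternatives it ranged from -0.14 to 0.21 with no call. E4 was 0.21 above the parental line (SE 0.14, adjusted p 0.29), which was called in a fit of those groups alone (0.21, adjusted p 0.00703) and without C5 replicate 2 (0.21, adjusted p 0.0416). C5 was also 0.21 above the parental line (SE 0.14, adjusted p 0.323), and without C5 replicate 3 this was called (0.35, adjusted p 0.0446). Gene-level counts do not separate the Cd44 splice forms.

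Hmmr (ENSMUSG00000020330, chr11:40701395-40733422, minus strand), which encodes a hyaluronan-binding protein that also acts on the mitotic spindle, was at 154, 151 and 150 CPM in E4, at 244, 238 and 109 CPM in C5 and at 157, 156 and 179 CPM in the parental line. C5 replicate 3 was the lowest of all libraries and C5 replicates 1 and 2 were the highest. The log2 difference of E4 was -0.38 from C5 (SE 0.24, edgeR adjusted p 0.241) and -0.11 from the parental line (SE 0.24, adjusted p 0.768). C5 replicate 3 decided the first, since without it Hmmr was called lower (-0.67, adjusted p 0.00013). Without that library Hmmr was also called 0.56 higher in C5 than in the parental line (adjusted p 0.000966), against 0.27 with it (SE 0.24, adjusted p 0.476).

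The order of the members differed between the groups per kb of annotated exon. Ugdh was at 106 ± 2.8 CPM per kb, Cd44 at 77.4 ± 3.7 and Hmmr at 28 ± 0.353 in E4 (SD, n = 3), followed by Cemip2 at 10.4 ± 0.336 and Hyal2 at 9.5 ± 0.405. Has2 came next, above Hyal1 at 1.03 ± 0.0803, and Has3 and Cemip were last. In C5, Cemip at 2.96 ± 1.28 CPM per kb took the place that Has2 held in E4, and Has2 had the lowest mean of the 9. Hyal2 stood above Cemip2 there and in the parental line. The libraries of Ugdh and Cd44 overlapped in C5, as did those of Cemip and Hyal1. In the parental line Hyal1 at 1.19 ± 0.14 and Cemip at 1.1 ± 0.302 also overlapped. Per kb of longest transcript some of these neighbours traded places. Cemip was then at 0.119 ± 0.00446 in E4, where Has3 was at 0.111 ± 0.0242 and their libraries overlapped. In the parental line Cemip was at 1.9 ± 0.519 on that scale and Hyal1 at 1.49 ± 0.176, also with overlap.

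Of the 8 tested members other than Has2, 1 was called higher in E4 than in C5 (Cemip2) and 1 lower (Cemip), where 42.9% of all tested genes were called, 18.7% higher and 24.2% lower. Between E4 and the parental line 0 were higher and 2 lower (Hyal2 and Cemip), where 31.4% of all tested genes were called, 13.1% higher and 18.3% lower. Their median log2 difference was -0.16 and -0.21, beside -0.023 and -0.006 over all tested genes. The set was chosen on Has2 in these comparisons, so nothing is read from the counts, and both comparisons share the E4 libraries. Between C5 and the parental line, 1 of the 8 was called higher in C5 (Cemip) and 2 lower (Has3 and Cemip2), where 21.4% of all tested genes were called, 10.4% higher and 11% lower. Nothing is read from the Has3 entry, because Has3 passed the filter on low counts through the groups where it was higher. With scaling by total counts, 61.2% of all calls in this comparison were lower, against 51.3% with TMM. The median log2 difference of the 8 was 0.07, beside 0.012 over all tested genes. Has2 was left out of this count after its values were seen. A count that takes Has2 in is 4 of 9, with a median of -0.06, and nothing is read from its Has2 and Has3 entries.

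**Figure D3:**
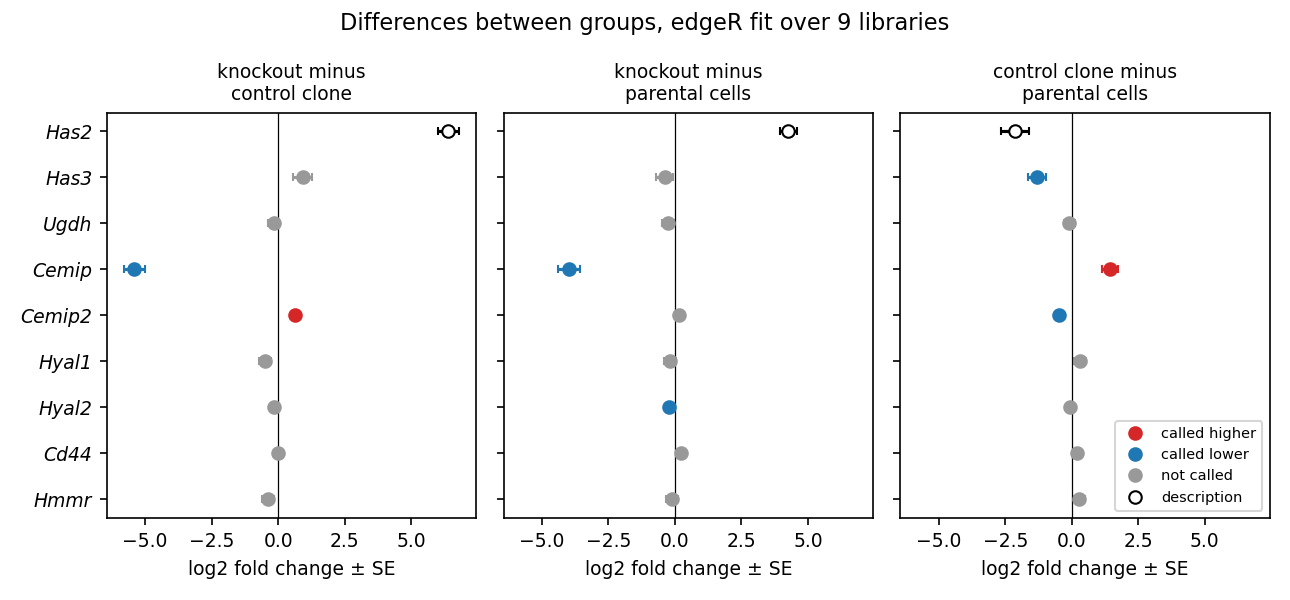
Log2 fold change of each tested member (points) with its standard error (bars) in the 3 comparisons, from the edgeR fit over all 9 libraries; red was called higher, blue lower, grey not called, and open black points (Has2) are given as a description. Cemip is at -5.41 and -3.98 in the comparisons of E4 and at 1.43 between C5 and the parental line. Has3 in the comparisons with C5, coloured by its fitted call, is also a description.

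The other genes of the pathway came from a list of 54 genes, Has2os among them, of which 30 passed the filter on low counts. Of these, E4 had 7 called higher and 7 lower than C5, and 6 higher and 9 lower than the parental line. C5 had 5 called higher and 5 lower than the parental line. Over all tested genes 42.9%, 31.4% and 21.4% were called in these comparisons. The medians of the 30 were -0.09, -0.21 and -0.09 on the log2 scale, beside -0.023, -0.006 and 0.012 over all tested genes. Pgm3, Hexa, Layn, Rdx and Adam10 lie on chromosome 9, with its median of -0.53 in both E4 comparisons and -0.02 between C5 and the parental line. Gnpnat1 and Mmp14 lie on chromosome 14, where the medians against C5 and the parental line were 0.19 and 0.21. Uap1 and Uxs1 lie on chromosome 1, with medians of -0.14 for E4 and -0.17 for C5 against the parental line, and Vcan on chromosome 13, with 0.33 for E4 against C5 and -0.20 for C5 against the parental line. The part of these shifts in the values of the genes was not tested. The genes named here beyond Hexa, Layn, Vcan, Itih2 and Has2os were picked to make the counts readable, after their values were seen.

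For the precursor sugars, 11 of 12 genes were tested. Gnpnat1, which acetylates glucosamine 6-phosphate on the way to UDP-N-acetylglucosamine, was called higher in E4 against both other groups, at 0.49 (SE 0.11, edgeR adjusted p 0.00554) and 0.46 (SE 0.11, adjusted p 0.0103) on the log2 scale. Its levels were 51.4 ± 1.87 CPM in E4, 36.7 ± 5.77 CPM in C5 and 37.3 ± 0.402 CPM in the parental line (SD, n = 3). Both calls were kept in all 17 alternatives. Pgm3, the next enzyme of that route, was called 0.67 higher in E4 than in C5 (adjusted p 0.00146) and was -0.56 in C5 against the parental line (adjusted p 0.00889), both in all 17 alternatives. Between E4 and the parental line it was 0.11 (adjusted p 0.497), so the C5 libraries were the ones that stood apart. Pgm2 was called lower in E4 than in C5 (-0.39, adjusted p 0.0371) in 7 of 17 alternatives, and leaving out any library other than C5 replicate 2 ended that call (adjusted p 0.0612 to 0.115). Hk2, a hexokinase, was called 0.84 higher in E4 (adjusted p 0.00136) and 0.98 higher in C5 (adjusted p 0.00124) than in the parental line, in all 17 alternatives. Uap1, which makes UDP-N-acetylglucosamine, and Uxs1, which uses up UDP-glucuronate, were called lower in E4 than in the parental line (-0.45, adjusted p 0.0262, and -0.32, adjusted p 0.0325). Both calls were lost without any 1 parental or E4 library (adjusted p 0.0545 to 0.108). Uap1 was also called lower in C5 than in the parental line (-0.50, adjusted p 0.0231), lost without C5 replicate 1 (0.0755), any 1 parental library (0.0578 to 0.0743) or with those groups alone (0.073). Uxs1 was at -0.29 there (adjusted p 0.0653) and was called in 4 of 17 alternatives, which were total counts (0.0395), a mean of 5 CPM as filter (0.0469), the DESeq2 test (0.0341) and leaving out C5 replicate 2 (-0.37, 0.015). Neither was called between E4 and C5 (0.05, adjusted p 0.758, and -0.04, adjusted p 0.787), although Uap1 was without C5 replicate 3 (0.24, adjusted p 0.0178). Gfpt1, which feeds glucose into the hexosamine route, was called in no comparison unless C5 replicate 3 was left out (C5 against the parental line -0.24, adjusted p 0.0302), and Gfpt2 held 0 counts in all libraries.

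For breakdown, 3 of 8 genes were tested. Hexa, the alpha subunit of the lysosomal hexosaminidase that trims hyaluronan fragments, was at 20.8, 23.1 and 19.9 CPM in E4, at 60.8, 64.4 and 48.8 CPM in C5 and at 44.5, 43.1 and 44.8 CPM in the parental line. The groups did not overlap. The log2 difference of Hexa was -1.45 between E4 and C5 (SE 0.11, edgeR adjusted p 2.43e-05) and -1.05 between E4 and the parental line (SE 0.11, adjusted p 0.000187), and both were called in all 17 alternatives, beside the chromosome 9 median of -0.53. It was called 0.39 higher in C5 than in the parental line (adjusted p 0.0321), a call kept in 9 of 17 alternatives. That call was lost without C5 replicate 1 (0.0912), without parental replicates 1, 2 or 3 (0.0986, 0.115 and 0.0868) and without E4 replicates 1 or 3 (0.0576 and 0.0505). Gusb, which encodes a lysosomal glucuronidase, was called in no comparison. Hyal3, Hyal4, Hyal5, Hyal6 and Spam1 were not tested, and the highest of them, Hyal3, was at most 0.193 CPM.

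Of 6 other receptors, 3 were tested, and all 3 were called lower in E4 against the parental line, where 18.3% of all tested genes were called lower. Layn, which encodes the membrane receptor layilin, was at 3.27, 1.78 and 3.33 CPM in E4, at 2.1, 1.43 and 4.72 CPM in C5 and at 7.18, 6.84 and 7.35 CPM in the parental line. The parental ones were above all others, and both clones overlapped. The log2 difference of Layn from the parental line was -1.35 in E4 (SE 0.39, edgeR adjusted p 0.0264) and -1.37 in C5 (SE 0.39, adjusted p 0.0337). The first call was lost without any 1 of the parental or E4 libraries (adjusted p 0.0558 to 0.0934). The second was lost without C5 replicate 1 (adjusted p 0.104), without parental replicates 1, 2 or 3 (0.0917, 0.0814 and 0.0848) and without E4 replicates 1 or 3 (0.0517 and 0.0507). The toll-like receptor genes Tlr2 and Tlr4 were called lower in E4 than in the parental line (-1.65, adjusted p 0.0162, and -0.96, adjusted p 0.0182). Leaving out parental replicate 3 or E4 replicate 2 ended both calls (adjusted p 0.0546 to 0.0794), as did E4 replicate 3 for Tlr2 (0.0662) and E4 replicate 1 for Tlr4 (0.0662). None of the 3 was called between E4 and C5, although Tlr2 and Tlr4 were without C5 replicate 2 (adjusted p 0.0319 and 0.0115). Lyve1, the hyaluronan receptor of lymph vessels, was at most 0.0525 CPM.

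Of 18 matrix-binding proteins, 5 were tested. Vcan encodes versican, a large proteoglycan that binds hyaluronan. It was at 7.86, 7.73 and 6.89 CPM in E4, at 0.742, 1.13 and 0.892 CPM in C5 and at 8.43, 6.95 and 6 CPM in the parental line. The C5 libraries stood alone, and the E4 and parental ones overlapped. Vcan had a log2 difference of -2.96 between C5 and the parental line (SE 0.21, edgeR adjusted p 5.07e-05) and 3.03 between E4 and C5 (SE 0.21, adjusted p 1.2e-05). Between E4 and the parental line the difference was 0.07 (SE 0.18, adjusted p 0.794). Both calls were kept in all 17 alternatives.

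Acan, which encodes the cartilage proteoglycan aggrecan, was at 352 ± 22.9 CPM in E4, 277 ± 20 CPM in C5 and 226 ± 23.2 CPM in the parental line (SD, n = 3). It was called 0.35 higher in E4 than in C5 (SE 0.10, edgeR adjusted p 0.0162) and 0.64 higher than in the parental line (SE 0.10, adjusted p 0.00114). The first call was lost without E4 replicate 1 (adjusted p 0.0558). Hapln4, which encodes a link protein, was at 12 ± 1.53 CPM in E4, 9.25 ± 1.09 CPM in C5 and 5.59 ± 0.872 CPM in the parental line. It was called higher in both clones than in the parental line (adjusted p 0.00108 and 0.0141), the latter not without parental replicate 3 (0.0511). Itih2, a heavy chain of the inter-alpha-inhibitor that is transferred to hyaluronan, held 1 count in the E4 libraries, 29 in the C5 libraries and 76 in the parental ones. The C5-to-E4 ratio of its levels was 27.4 (95% counting interval 4.55 to 1120) and the parental-to-E4 ratio was 77.2 (13.4 to 3088). Itih2 passed the filter on low counts through the groups where it was high, mainly the parental one, so these ratios are a description with no test, although the list counts above include it as lower in E4. The link protein genes Hapln1, Hapln2 and Hapln3 and the hyaluronan-crosslinking genes Tnfaip6 and Ptx3 held at most 2 counts in any library.

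Of 9 partners and proteases of CD44, 8 were tested. Msn, which encodes moesin, a linker of CD44 to actin, was at 1400, 1380 and 1392 CPM in E4, at 687, 1018 and 607 CPM in C5 and at 987, 901 and 717 CPM in the parental line. The E4 libraries were above all others. Msn was 0.85 higher on the log2 scale in E4 than in C5 (SE 0.18, edgeR adjusted p 0.0048) and 0.68 higher than in the parental line (SE 0.18, adjusted p 0.0198). The second call was lost without parental replicates 2 or 3 (adjusted p 0.0505 and 0.0749) or E4 replicates 1 or 3 (0.0551 and 0.0563). Rdx, which encodes the related linker radixin, was called lower in E4 than in C5 (-0.40, adjusted p 0.0111) and than in the parental line (-0.47, adjusted p 0.00677), both in all 17 alternatives, and neither difference was below the chromosome 9 median of -0.53. Ezr was called lower in E4 than in C5 (-0.21, adjusted p 0.0322) in 7 of 17 alternatives. It was called higher in C5 than in the parental line (0.26, adjusted p 0.0233) in 10 of 17. Nf2 was called higher in E4 than in C5 (0.37, adjusted p 0.0124) in all 17. Neither was called between E4 and the parental line.

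Of the proteases that shed CD44, Mmp14 rose and Adam10 fell in E4 against both other groups. Mmp14, a membrane-bound metalloproteinase, was at 102 ± 3.7 CPM in E4, 61.4 ± 2.96 CPM in C5 and 58 ± 2.88 CPM in the parental line, and was called 0.73 and 0.82 higher (edgeR adjusted p 7.88e-05 and 7.82e-05). Adam10, in that order, was at 201 ± 2.97, 369 ± 66.9 and 415 ± 22.5 CPM (SD, n = 3), and its log2 differences were -0.87 and -1.05 (adjusted p 0.000476 and 0.000303), beside the chromosome 9 median of -0.53. These 4 calls were kept in all 17 alternatives. Adam17 was called lower in E4 than in C5 (-0.27, adjusted p 0.014) in 13 of 17 alternatives. It was called higher in C5 than in the parental line (0.43, adjusted p 0.00343) in all 17, and was 0.16 between E4 and the parental line (adjusted p 0.11). The medians of its chromosome 12 were -0.25, 0.29 and 0.02 in the same order. Spp1, which encodes the CD44 ligand osteopontin, was at 747, 528 and 839 CPM in E4, at 875, 467 and 1883 CPM in C5 and at 1115, 1174 and 1115 CPM in the parental line, and was called in no comparison. It was called lower in E4 than in C5 without C5 replicate 2 (-0.96, adjusted p 0.0134), lower than in the parental line without C5 replicates 2 or 3 (0.048 and 0.0339) or with those groups fitted alone (0.00159), and lower in C5 than in the parental line without C5 replicate 3 (-0.76, adjusted p 0.0498).

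**Figure D4:**
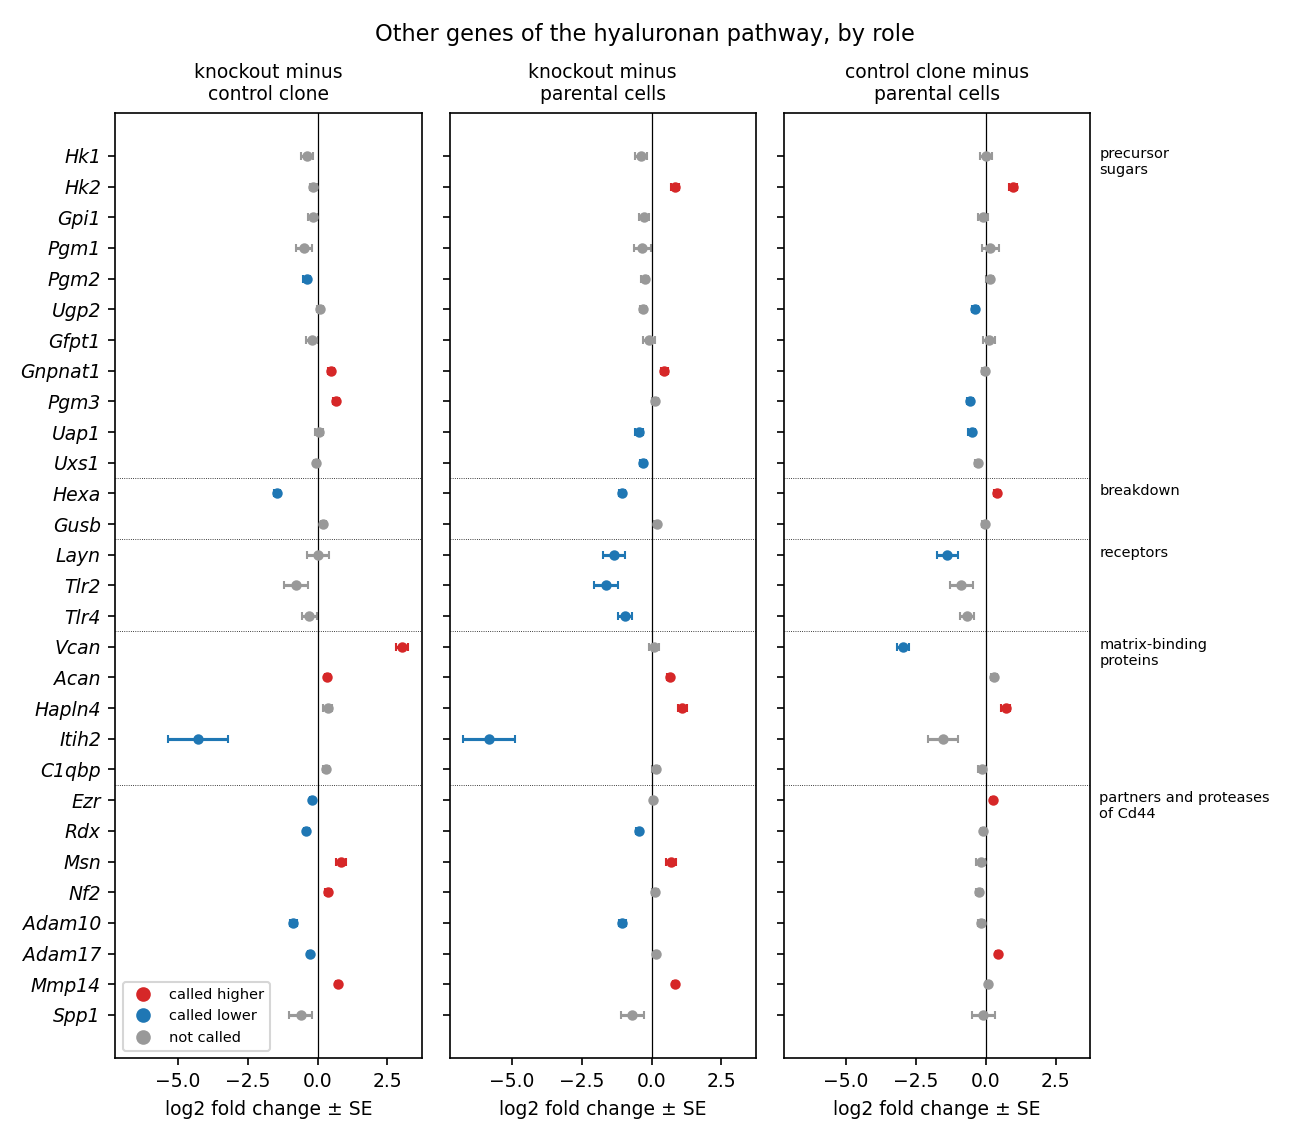
Log2 fold change (points) with its standard error (bars) of 29 of the 30 other tested pathway genes in the 3 comparisons, grouped by role from top to bottom; red was called higher, blue lower and grey not called. Vcan is at 3.03 against C5 and at 0.07 against the parental line, Hexa is lower in both E4 comparisons, and Itih2, coloured by its fitted call, is a description only, since its fitted value depends on the prior count where E4 held 1 count.

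The genes whose levels followed Has2 most closely over the 9 libraries were Ppp1r18, Itga2, Sox4, Zfp184 and F2r, ranked by the Pearson correlation of log2 CPM among 10395 genes with at least 5 CPM in their highest group. Their r was 0.994 to 0.997, and 633 genes exceeded 0.9. All 9 points come from the same 3 groups. Itga2, the collagen-binding integrin subunit alpha 2, was at 509 ± 40.5 CPM in E4, 118 ± 23.5 CPM in C5 and 180 ± 21.5 CPM in the parental line (SD, n = 3). In that order, Sox4, a transcription factor gene, was at 499 ± 29.1, 215 ± 28.1 and 274 ± 16.8 CPM, and F2r, the thrombin receptor gene, at 805 ± 84.3, 356 ± 41.2 and 453 ± 28.7 CPM.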

How the data were processed

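The authors deposited RSEM estimated counts per Ensembl gene, 1 column per library; all 54838 rows held whole numbers, so rounding changed none. RSEM 1.3.0, STAR 2.5.2, DESeq2 1.10.1 and build GRCm38 are named in the submitters' processing notes, without their roles. Annotation release and strand setting are not given in the sources used here. Symbols and positions came from GENCODE M21 (GRCm38), which held 54809 of the identifiers. All 10 members matched, 9 passed the filter on low counts, and Has1 did not.

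The test was edgeR 4.0.16's quasi-likelihood test in R 4.3.3, after filterByExpr (minimum count 10, minimum total 15) and TMM scaling, in 1 fit of all 9 libraries with the group as the only term. Adjusted p values are Benjamini-Hochberg over 13153 genes, which held at least 99.88% of each library's counts. The SE is the unshrunken log2 fold change over the square root of F. The labels call the libraries biological replicates and say no more of separate cultures, so p values measure the spread between these libraries, 3 per group. Every pair of libraries of a group differed by more than sampling noise (chi-square per gene of at least 5). The procedure was tested on simulated counts, where it recovered 28% to 38% of 1.5-fold changes and 60% to 68% of 2-fold changes in the 3 comparisons. Differences of that size can therefore go uncalled.

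The members and lists were chosen with earlier results of these data known. Named genes are the members, Has2os, Zdhhc20, pathway genes called the same way in both comparisons of E4, or called between C5 and the parental line, where the log2 difference was 1 or more in size, the 3 nearest tested genes on either side of Has2, and the 5 genes most correlated with it. Other pathway genes, markers and the genes most correlated with Cemip were named after their values were seen. Alternatives were size factors from DESeq2 1.42.0, total counts, no filter, a filter at a mean of 5 CPM, the DESeq2 or limma 3.58.1 voom test, a replicate block, separate fits of each pair of groups, each library left out, Has2 summed with Has2os, and the longest transcript as gene length. Those for other genes, and the count of members without Has2 between C5 and the parental line, were added after seeing the data. The result of 1 tested pathway gene is not reported here, though list counts and medians include it. Intervals and ratios from counts cover counting error only.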

Additional observations from a re-analysis of the deposited data

How the results depend on the processing

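Calls of Cemip in all comparisons, of Cemip2 and Vcan against C5 and of Hexa in both E4 comparisons were kept in every alternative run. Leaving out 1 library gave 2 to 4 members, 11 to 24 pathway genes and 4301 to 7204 of all genes called in E4 against C5. The highest of each came without C5 replicate 2. Against the parental line it gave 1 to 3 members, 9 to 20 pathway genes and 2515 to 5693 of all genes, and between C5 and the parental line 2 to 6, 5 to 16 and 1472 to 4102. The member counts between C5 and the parental line include Has2, without which 3 were called instead of 4. They also include Has3, which is a description there. With each pair of groups fitted alone, E4 against the parental line gave 4 members, 23 pathway genes and 6840 genes, and C5 against it gave 1, 5 and 1525. For E4 against the parental line, no filter, limma voom and the replicate block each left 1 member, Cemip. Fewer libraries or genes enter some of these fits, and beyond that the cause was not tested. Has2 against C5 was 7.03 without C5 replicate 2 and 5.67 when summed with Has2os.

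The replicate numbers showed no clear pairing: deviations of same-numbered libraries correlated at -0.223 to 0.344, and not every library correlated best with its own number. Deviations from a mean of 3 libraries are tied to each other, so this check cannot show whether libraries were paired. With the replicate block 5528, 3941 and 2492 genes were called, against 5643, 4131 and 2814. The calls of Hyal2 and Krt18 between E4 and the parental line were lost (edgeR adjusted p 0.0835 and 0.0645), while Tlr4 was called between C5 and the parental line (-0.72, adjusted p 0.047). Apart from Has3 between C5 and the parental line, which is a description, the block changed no other call of a member, pathway gene or named marker. Low counts limit Has2 outside E4, Cemip in E4, Has3 and Has2os.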

Other observations

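By the measure used for Has2, and chosen after the Cemip values were seen, the genes closest to Cemip over the 9 libraries were Snx33, Alg9, Dlx3, Ern2 and Mgll, with r from 0.996 to 0.998, and 907 genes exceeded 0.9. Snx33, a sorting nexin gene, was at 13.8 ± 0.367 CPM in E4, 36.4 ± 5.63 CPM in C5 and 28.7 ± 3.2 CPM in the parental line (SD, n = 3). Dlx3, a homeobox gene of epithelia, stood at 2.6 ± 0.12 CPM in E4, 9.57 ± 1.65 CPM in C5 and 6.96 ± 0.902 CPM in the parental line. Mgll, which encodes monoacylglycerol lipase, held 0 counts in the E4 libraries and was at 10.2 ± 6.92 CPM in C5 and 2.67 ± 0.989 CPM in the parental line.

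Several members were further apart between the C5 libraries than between the E4 libraries. The highest C5 library exceeded the lowest 2.23-fold for Hmmr, 2.09-fold for Ugdh, 1.92-fold for Hyal1 and 1.59-fold for Cd44, against 1.02-fold, 1.05-fold, 1.15-fold and 1.1-fold in E4. Over all genes above a mean of 5 CPM, the median ratio was 1.31-fold in C5, 1.1-fold in E4 and 1.12-fold in the parental line.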
